A study of Mus musculus with 12 samples.

Results

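The nuclear-encoded subunits of respiratory complexes II to V were followed in mouse liver RNA. They were chosen by name: protein-coding rows of the deposited table called Sdha, Sdhb, Sdhc, Sdhd or Cyc1, or with a symbol that starts with Uqcr, with Cox4 to Cox8, or with Atp5. This gave 50 rows of 56748, under 49 symbols, because Atp5o is listed under a pair of Ensembl identifiers. Of these, 45 had enough counts to be tested, 4 in complex II, 9 in complex III, 15 in complex IV and 17 in complex V. The 5 that did not pass the filter on low counts were Cox6a2, Cox8b, Cox7b2, Cox8c and the second copy of Atp5o, and the last 3 of these had 0 counts in all libraries.

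Poly(A)-selected RNA of whole liver was sequenced from 16-week-old mice of both sexes, kept on normal chow in co-housed cages. Wild type mice were of the 129S1/SvImJ line, and knockout mice were of the 129/Sv-Cyp2e1tm1Gonz/J line, which carries a targeted allele of Cyp2e1, an ethanol- and drug-oxidising cytochrome P450. Each sex had a wild type and a knockout group, each with 3 libraries that the series calls biological replicates. Genotype and line cannot be told apart, since each genotype is a line of its own.

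The respiratory chain of the inner mitochondrial membrane passes electrons from NADH and succinate to oxygen and pumps protons, and the ATP synthase uses the proton gradient to make ATP. Succinate dehydrogenase is complex II, the cytochrome bc1 complex is complex III, cytochrome c oxidase is complex IV, and the ATP synthase is complex V. Most subunits are encoded in the nucleus, while the catalytic core of complex IV and parts of complexes III and V are encoded in mitochondrial DNA. Hepatocytes are rich in mitochondria and use this machinery to support gluconeogenesis, urea synthesis and fatty acid oxidation.

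Levels are given as CPM, the usual depth-normalised read count, with library sizes scaled by edgeR's TMM factors. Total counts ran from 15167730 to 25082532 per library, and the 50 rows took 0.941% to 1.73% of them. Cyp2e1 stood at 6213 to 11480 CPM in wild type and at 230 to 403 CPM in knockout libraries, so the genotype labels held for all 12. Alb, the main secreted protein of hepatocytes, was at 36784 to 84000 CPM. Female knockout replicate 2 stood apart in markers of skeletal muscle. Their sum was 97.4 CPM there and at most 9.92 CPM elsewhere, and 7 of the 10 markers (Acta1, Myh1, Tnnt3, Myh4, Ckm, Mb and Actn2) had 41 to 903 counts there and at most 2 elsewhere. The libraries also differed in a length slope, the change of a library's log2 CPM against the mean of all libraries per doubling of the deposited gene length. It was taken over 9323 tested genes that are no members. Results are given with and without the slope. Counts of calls and medians of the members are also given without female knockout replicate 2. The fold changes of single genes, the sums, the marker calls and the comparisons by length include that library.

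In females most of these transcripts were lower in the knockout. Of the 45 tested, 37 were called lower and 0 higher by edgeR's quasi-likelihood test at an adjusted p under 0.05, against 36.5% of all 14003 tested genes called, 18.8% lower and 17.7% higher. DESeq2 called 38 lower, with a background of 20.6% called lower. The median log2 fold change of the 45 was -1.09, or 2.12-fold lower, while that of all tested genes was 0.05. By complex, 3 of 4 transcripts of complex II fell, 8 of 9 of complex III, 12 of 15 of complex IV and 14 of 17 of complex V, with medians of -0.83, -1.37, -1.05 and -1.33. In 39 of the 45 every knockout female lay below every wild type female, against 27.1% of all tested genes.

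The calls depended on single libraries, over all genes as well as over the members. Without female wild type replicate 2, and likewise without female knockout replicate 2, 0 members were called by edgeR, with medians of -1.09 and -0.96. In those fits 5 and 4 genes were called in all, against 5116 in the full fit. The members with an unadjusted p under 0.05 were 37 and 36 in those fits and 38 in the full one. In whole tissue, fewer cells of a type and less RNA per cell cannot be told apart.

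Markers of other liver cell types also differed between the female groups. Of 6 sinusoidal endothelial markers 4 were called higher in knockout females (Cdh5 1.18, Ptprb 0.92, Stab2 0.90 and Stab1 0.72, log2). Clec4g (-0.40, with no overlap between the female groups) and Lyve1 (0.32) were not called. The 6 summed to 123 to 145 CPM in wild type and to 171 to 225 CPM in knockout females. In males that sum was 111 to 128 CPM in wild type and 111 to 170 CPM in knockout. Of 6 Kupffer cell markers 3 were higher (Marco 2.23, Csf1r 1.56 and Cd5l 0.92), with overlapping sums of 112 to 165 CPM and 160 to 188 CPM in females and of 88.0 to 136 CPM and 110 to 132 CPM in males. Adgre1 (0.49), Vsig4 (0.03) and Clec4f (-0.08) were not called. Of 6 stellate cell markers 2 were higher (Pdgfrb 1.45 and Reln 0.83) and 1 lower (Dcn, -0.49), with sums of 211 to 236 CPM and 192 to 232 CPM in females and of 130 to 158 CPM and 170 to 193 CPM in males. Of 5 cholangiocyte markers 2 were lower (Krt7 -1.41 and Spp1 -0.69) and 1 higher (Sox9, 1.39), with sums of 42.2 to 49.9 CPM and 22.3 to 34 CPM in females and of 35.3 to 43.3 CPM and 35 to 42.6 CPM in males. The B cell marker Cd79a was higher (2.58), while the adipocyte marker Fabp4 (-1.09) and the pancreatic marker Cela2a (-1.30) were lower, each in a list that summed to at most 12.0 CPM in any library. The adipose markers Ucp1 and Lep were at 0 in all libraries. The 8 hepatocyte markers summed to 82640 to 110806 CPM in wild type and to 96553 to 97611 CPM in knockout females, which overlapped, and none was called. Most of that sum was Alb (58510.5 to 84000 CPM and 71056 to 77224 CPM). Single markers ran from -0.42 (Cyp2c29) to 0.77 (Hnf4a, edgeR adjusted p = 0.070, with no overlap between the female groups). The 3 erythroid markers summed to 386 to 911 CPM and to 206 to 520 CPM, which overlapped too. Of all tested genes 18.8% were called lower and 17.7% higher in females. The female median of genes that are no members also rose with deposited length, from -0.92 under 1000 bases to 0.36 at 4000 bases and over. The marker calls alone therefore do not show a change in cell types. The part of length in the marker calls was not tested, nor was the part of these cell types in the members' fall.

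Summed over a complex, the level showed the same order. Complex V transcripts summed to 7381, 7642 and 7745 CPM in wild type females and to 4657, 3949 and 4726 CPM in knockout females. Complex IV summed to 4184, 4803 and 5367 CPM and to 2526, 1614 and 2007 CPM. Complex III summed to 3597, 4145 and 4222 CPM and to 2144, 1591 and 1935 CPM. Every knockout sum was below every wild type sum, and replicate 2 was the lowest knockout library in complexes III, IV and V. Complex II summed to 1617, 1764 and 1570 CPM and to 980, 1002 and 1128 CPM, and there replicate 1 was the lowest.

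**Figure D1:**
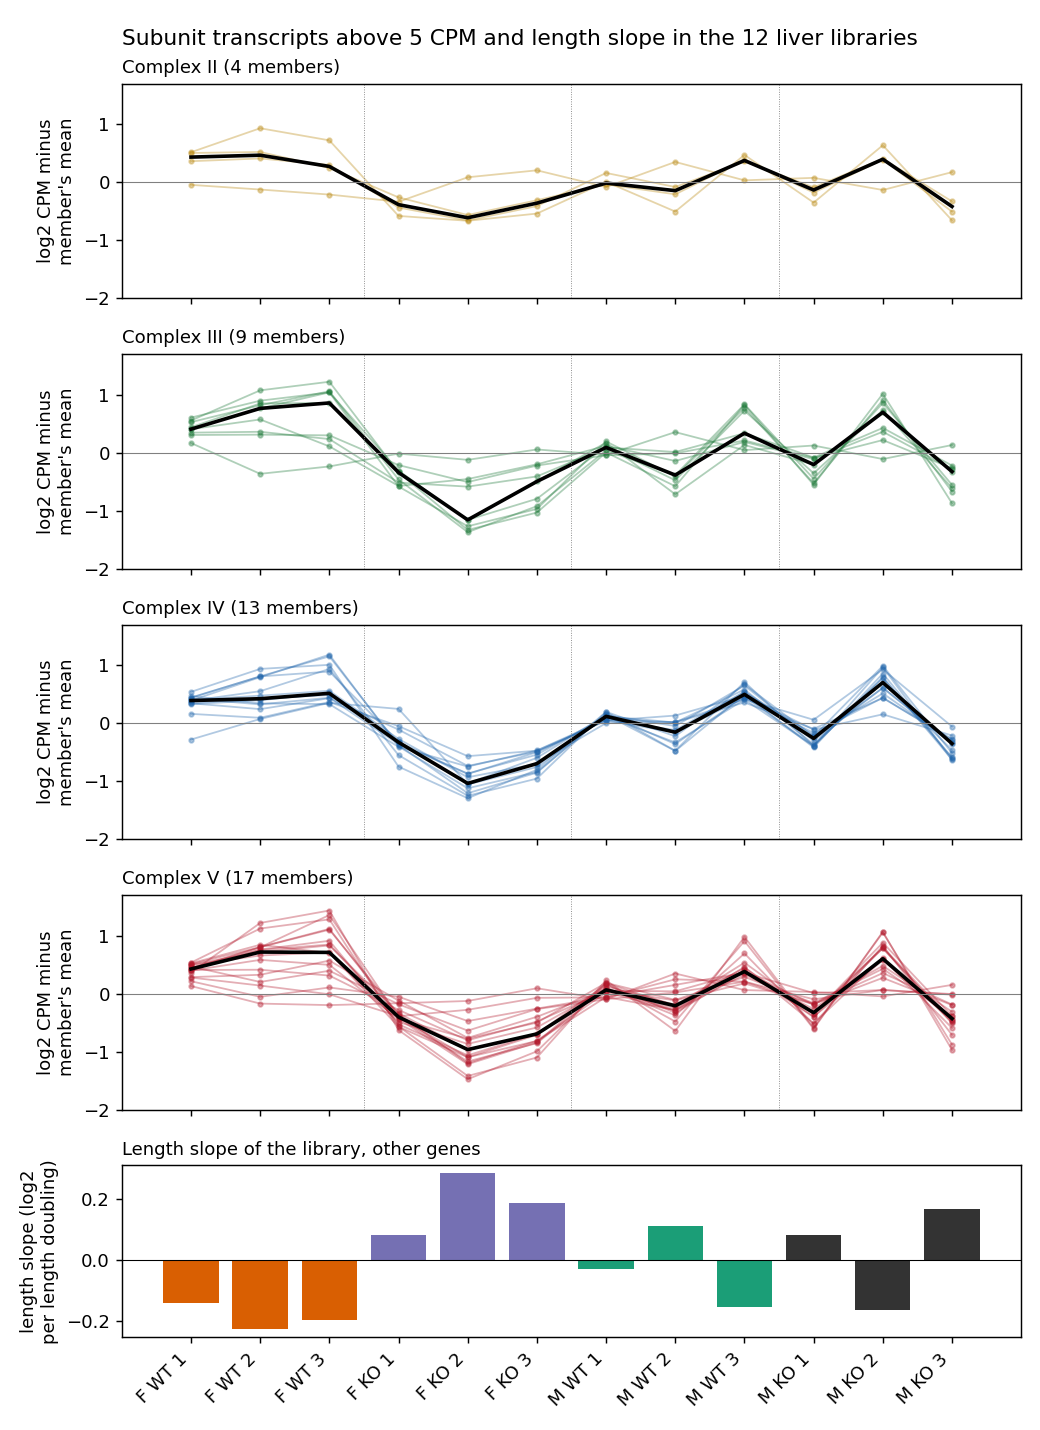
Log2 CPM of each transcript above 5 CPM minus its mean over the 12 libraries (vertical axes), by complex, with the length slope of each library in the lowest panel (log2 per doubling of gene length). Thin lines join the points of a transcript and the black line is the median of its panel. In females the medians were above 0 in all wild type libraries and below 0 in all knockout libraries, while in males they were high in wild type replicate 3 and knockout replicate 2, where the slope bar points down.

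The promoters of the members were searched for 3 motifs that are known from genes of the respiratory chain. These were CCGGAAG, the core bound by ETS factors such as GABP (nuclear respiratory factor 2), CATGCGC, within the palindrome bound by NRF1, and AAGATGG, the core of a YY1 site. Windows from 250 bases before to 50 after the start of the gene were taken from RefSeq (GRCm38.p6, a build other than that of the counts), both strands were searched, and 36 of the 49 symbols had a window, 39 windows in all. CCGGAAG was in 13 windows (33.33%) against 8.86% of 32851 mouse windows. CATGCGC was in 8 (20.51%) against 3.91%, and AAGATGG in 4 (10.26%) against 6.34%. At least 1 of the 3 was in 19 windows, 48.72% against 17.46%. The background was all windows, not limited to genes tested here. CATGCGC and its complement overlap when the palindrome is whole, and no match says only that these letters are not in the window. The 250 bases before the start are shown for Cox6a1, with both NRF1 and ETS letters, for Sdhd and Atp5e, with ETS letters and large falls, and for Sdha, which did not fall and has none of the 3. Capitals mark the matches of either strand (CTTCCGG is the complement of CCGGAAG and GCGCATG that of CATGCGC), and the sequences read 5′ to 3′ along the gene's strand, which is the minus strand for all 4 (chr5:115348959-115349208, chr9:50603850-50604099, chr2:174464102-174464351 and chr13:74350241-74350490).
Cox6a1: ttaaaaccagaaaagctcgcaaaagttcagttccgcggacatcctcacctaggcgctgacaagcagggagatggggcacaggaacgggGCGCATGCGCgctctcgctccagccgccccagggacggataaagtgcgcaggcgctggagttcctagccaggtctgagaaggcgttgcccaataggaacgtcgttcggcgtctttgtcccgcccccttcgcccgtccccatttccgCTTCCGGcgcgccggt
Sdhd: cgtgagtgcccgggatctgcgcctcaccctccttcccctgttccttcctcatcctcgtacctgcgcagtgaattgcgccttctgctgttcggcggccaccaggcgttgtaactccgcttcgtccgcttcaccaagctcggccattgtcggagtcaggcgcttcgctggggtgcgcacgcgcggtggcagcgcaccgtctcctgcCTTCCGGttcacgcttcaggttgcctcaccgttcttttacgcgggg
Atp5e: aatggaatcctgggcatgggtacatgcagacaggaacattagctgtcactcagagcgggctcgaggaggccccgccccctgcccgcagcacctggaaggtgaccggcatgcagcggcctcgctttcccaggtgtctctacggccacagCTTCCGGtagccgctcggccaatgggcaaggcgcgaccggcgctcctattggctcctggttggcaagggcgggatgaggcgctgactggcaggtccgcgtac
Sdha: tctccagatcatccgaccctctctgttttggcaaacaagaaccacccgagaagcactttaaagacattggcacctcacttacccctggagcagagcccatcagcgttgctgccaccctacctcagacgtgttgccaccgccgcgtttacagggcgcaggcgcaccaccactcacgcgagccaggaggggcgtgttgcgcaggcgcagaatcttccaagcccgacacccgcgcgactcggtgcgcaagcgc
The 13 members with CCGGAAG were all called lower in females, as were 7 of the 8 with CATGCGC, the other being Uqcrc1. Of the 36 members with a window, 28 were called lower in females. At least 1 of the 3 motifs was in 18 of these 28, and the others fell with none of the 3. No promoter of such a member is shown. The part of these motifs in the fall was not tested.

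In complex II the catalytic flavoprotein did not fall and the other subunits did. The flavoprotein also has the longest gene of the complex by deposited length (4126 bases, against 1231 to 3250). By principal GENCODE M21 transcript it has 2900 bases, and Sdhc, which fell, is longer with 3171. The part of role and of length in this difference was not tested. Sdha (ENSMUSG00000021577, mm39, chromosome 13, 74470373 to 74498399), which binds FAD and oxidises succinate, was at 388, 367 and 346 CPM in wild type and at 317, 425 and 462 CPM in knockout females. The groups overlapped (0.13 ± 0.19, log2 fold change and its standard error, edgeR adjusted p = 0.60). Sdhb (chromosome 4, 140688514 to 140706504), the iron-sulfur subunit, was at 458, 473 and 438 CPM in wild type and at 263, 226 and 268 CPM in knockout females. That is 1.81-fold lower (-0.85 ± 0.20, edgeR adjusted p = 0.014), with no overlap. Sdhd (chromosome 9, 50507657 to 50515112), a membrane anchor whose promoter is shown above, went from 450, 599 and 518 CPM to 210, 198 and 216 CPM. It was the largest fall of the complex, 2.51-fold (-1.33 ± 0.31, edgeR adjusted p = 0.014). Sdhc (chromosome 1, 170954734 to 170978172), the other membrane anchor, went from 321, 325 and 269 CPM to 189, 153 and 183 CPM (-0.80 ± 0.23, edgeR adjusted p = 0.021). In males the 4 transcripts overlapped between genotypes. Sdhd, for example, was at 316, 221 and 435 CPM in wild type and at 246, 489 and 199 CPM in knockout males (-0.06 ± 0.31). Sdhb was at 398, 337 and 457 CPM and at 335, 471 and 284 CPM, and Sdha at 378, 510 and 410 CPM and at 422, 365 and 452 CPM. Of the 6 male libraries, knockout replicate 2 had the highest Sdhb and Sdhd and the lowest Sdha.

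In complex III the small subunits without a redox group had the largest falls. The core subunit Uqcrc1, the longest by deposited length, did not fall. By principal GENCODE M21 transcript it has 1653 bases, and the other core subunit Uqcrc2, which fell, has 1896. Uqcrh, the acidic hinge protein that helps dock cytochrome c, was at 360, 516 and 572 CPM in wild type and at 194, 97.5 and 120 CPM in knockout females (-1.82 ± 0.48, edgeR adjusted p = 0.016). Uqcr10, a single-span subunit and the shortest of the complex by deposited length (584 bases), went from 263, 322 and 356 CPM to 116, 72.0 and 88.5 CPM (-1.77 ± 0.40). Uqcr11, another small membrane subunit, went from 334, 409 and 483 CPM to 168, 89.8 and 122 CPM (-1.69 ± 0.40). In each of the 3 the lowest library was knockout replicate 2, and the groups stood apart without it as well. Uqcrq, which lies at the ubiquinone-binding side, went from 872, 1159 and 1166 CPM to 512, 289 and 371 CPM (-1.45 ± 0.37). Uqcrb, which also borders a ubiquinone site, went from 130, 166 and 202 CPM to 79.2, 43.7 and 69.5 CPM (-1.37 ± 0.33).

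The subunits of complex III that carry a redox centre fell too, with smaller fold changes. Their principal transcripts have 1520 (Cyc1) and 1363 (Uqcrfs1) bases. Those of Uqcrh, Uqcr10, Uqcr11 and Uqcrb have 547, 434, 445 and 535, and that of Uqcrq has 1521. The part of redox role and of length in the size of the falls was not tested. Cyc1, the cytochrome c1 haem protein, went from 480, 485 and 445 CPM to 264, 252 and 285 CPM (-0.82 ± 0.19, edgeR adjusted p = 0.014). Uqcrfs1, the Rieske iron-sulfur protein, went from 430, 432 and 428 CPM to 300, 245 and 299 CPM (-0.61 ± 0.17, edgeR adjusted p = 0.018). Its wild type libraries were nearly level and all lay above the knockout ones. Uqcrc2, a core protein of the matrix arm, was 1.71-fold lower (-0.78 ± 0.20). Uqcrc1 (4135 bases, chromosome 9, 108765701 to 108778691), the other core protein, was at 378, 261 and 286 CPM in wild type and at 333, 309 and 350 CPM in knockout females. These overlapped (0.10 ± 0.18, edgeR adjusted p = 0.68).

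In complex IV 12 of the 15 tested transcripts fell, most of them subunits that surround the mitochondrially encoded core. The transcripts with most CPM per kilobase of deposited length over all libraries were Cox6a1 (814), Cox4i1 (535) and Cox8a (515). Cox4i1, the regulatory subunit that binds adenine nucleotides, went from 1025, 1319 and 1398 CPM in wild type to 605, 363 and 447 CPM in knockout females (-1.40 ± 0.34, edgeR adjusted p = 0.014). Cox6a1 (chromosome 5, 115483701 to 115487040), the general isoform of a subunit at the dimer interface, went from 684, 718 and 780 CPM to 434, 298 and 386 CPM (-0.96 ± 0.25, edgeR adjusted p = 0.015). Cox8a, a single-span subunit, went from 391, 365 and 416 CPM to 286, 185 and 220 CPM (-0.76 ± 0.23, edgeR adjusted p = 0.025). None of the 3 overlapped between the female groups. Cox7b, encoded on the X chromosome (105059306 to 105066056), had the largest fall of the complex, from 301, 395 and 415 CPM to 123, 84.4 and 119 CPM (-1.77 ± 0.39). Cox7c fell by 1.6 on the log2 scale and Cox5b by 1.05. Cox7a2, the isoform of most tissues, went from 195, 219 and 286 CPM to 102, 62.8 and 77.2 CPM (-1.53 ± 0.36), and Cox6b1, which lies at the intermembrane face, from 387, 409 and 433 CPM to 244, 154 and 181 CPM (-1.09 ± 0.27). All of these were lowest in knockout replicate 2. Cox5a, which faces the matrix, went from 219, 201 and 199 CPM to 120, 94.5 and 115 CPM (-0.91 ± 0.20).

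Cox6c (chromosome 15, 35926032 to 35938392) is the longest member of complex IV by deposited length, 3567 bases, but its principal GENCODE M21 transcript has 738. It went from 312, 413 and 540 CPM to 181, 110 and 133 CPM (-1.58 ± 0.38), a fall like those of the short members. Cox5b-ps, the shortest tested member at 390 bases and annotated as protein coding, went from 25.1, 23.5 and 25.4 CPM to 14.6, 10.3 and 12.9 CPM (-0.97 ± 0.29). It may share reads with Cox5b, so its values are uncertain. Cox7a2l, related to Cox7a2 and known for joining complexes III and IV into supercomplexes, went from 87.6, 83.6 and 101 CPM to 75.7, 52.9 and 56.4 CPM (-0.56 ± 0.19, edgeR adjusted p = 0.038). It was the smallest fall among the 37 called.

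Isoforms known from other tissues were low or at 0. Cox4i2, the isoform of lung and of low oxygen, had 1 to 14 counts per library, with 0.0945, 0.0638 and 0.322 CPM in wild type and 0.623, 0.139 and 0.513 CPM in knockout females (1.43 ± 0.84, edgeR adjusted p = 0.19). Cox7a1, a heart and muscle isoform, was at 3.31, 2.49 and 3.60 CPM in wild type and at 1.91, 1.16 and 0.770 CPM in knockout females (-1.30 ± 0.62, edgeR adjusted p = 0.11). Its groups did not overlap, yet it did not pass. Cox6b2, a testis isoform, was at 12.6, 16.1 and 19.6 CPM and at 18.2, 7.41 and 9.46 CPM, which overlapped (-0.46 ± 0.34, edgeR adjusted p = 0.29). The muscle isoform Cox6a2 had 31 counts in female knockout replicate 2 and 0 to 4 in the others, and the muscle isoform Cox8b, on chromosome 7 (140478858 to 140480359), had 9 there and 0 to 4 in the others. This is the library with skeletal muscle markers, whose summed level was 4.15 to 6.90 CPM in wild type females, 5.43 to 97.4 in knockout females, 3.63 to 4.54 in wild type males and 3.35 to 6.11 in knockout males. The part of muscle RNA in the fall of the liver isoforms was not tested. The testis isoforms Cox7b2 and Cox8c had 0 counts, which allows up to 3 counts per library.

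In complex V the alpha and beta subunits of the catalytic head did not pass the test, while subunits of the stalks and the membrane part fell. Per kilobase of deposited length Atp5b (336 CPM) and Atp5a1 (329 CPM) had the highest levels of the complex. Atp5b, the catalytic beta subunit, was at 1712, 1555 and 1401 CPM in wild type and at 1079, 1164 and 1343 CPM in knockout females. The groups did not overlap, but the difference did not pass (-0.38 ± 0.16, edgeR adjusted p = 0.084; DESeq2 adjusted p = 0.034). Atp5a1, the alpha subunit, was at 1123, 911 and 894 CPM and at 914, 939 and 1093 CPM, which overlapped (0.01 ± 0.17, edgeR adjusted p = 0.97). Atp5d, the delta subunit at the foot of the central stalk, did not pass either (-0.34 ± 0.17, edgeR adjusted p = 0.12). Atp5c1, the gamma subunit that turns inside the head, went from 425, 483 and 455 CPM to 239, 188 and 228 CPM, 2.08-fold lower (-1.06 ± 0.21, edgeR adjusted p = 0.014). Atp5e (chromosome 2, 174302865 to 174305898), the small epsilon subunit beside it, had the largest fall of all 45, from 103, 186 and 216 CPM to 51.7, 28.8 and 40.1 CPM. That is 4.18-fold lower (-2.06 ± 0.51, edgeR adjusted p = 0.015). Wild type replicate 1 stood well below the other two in Atp5e, yet above all knockout females.

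The peripheral stalk, which holds the head still, fell in all 4 subunits listed. Atp5h went from 287, 334 and 362 CPM to 161, 104 and 126 CPM (-1.33 ± 0.28), Atp5pb was at -1.33 ± 0.28, Atp5j at -1.45 ± 0.32 and Atp5o, the link between stalk and head, at -1.40 ± 0.31. The proton-conducting ring of c subunits is encoded by Atp5g1, Atp5g2 and Atp5g3, whose mature proteins are the same. Atp5g3, the most abundant of these per kilobase of deposited length, went from 705, 708 and 660 CPM to 438, 305 and 381 CPM (-0.88 ± 0.22, edgeR adjusted p = 0.015), while Atp5g2 was at -0.80 ± 0.21 and Atp5g1 at -0.71 ± 0.19. In each of these genes every knockout female lay below every wild type female.

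The small membrane subunits near the dimer interface of the ATP synthase fell as well, with larger fold changes. Atp5md, a subunit of the membrane part (chromosome 19, 47071903 to 47079086), went from 229, 344 and 384 CPM to 107, 59.2 and 73.8 CPM (-2.0 ± 0.50, edgeR adjusted p = 0.015). Atp5k, the e subunit and the shortest member of the complex (616 bases), went from 75.8, 98.2 and 144 CPM to 42.7, 26.4 and 32.1 CPM (-1.65 ± 0.34). Atp5l, the g subunit, went from 174, 213 and 265 CPM to 92.4, 54.4 and 67.7 CPM (-1.60 ± 0.39). Atp5l is the longest member by deposited length (6443 bases, chromosome 9, 44823855 to 44832040), while its principal transcript has 544. Atp5mpl (-1.55 ± 0.34) and Atp5j2 (-1.48 ± 0.33) moved alike.

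In males no such shift was seen. None of the 45 was called by edgeR (0 members, against 0.0571% of all tested genes), 0 had an unadjusted p under 0.05, and DESeq2 called 0. The median was -0.10, and the values ran from -0.71 (Cox4i2, 1 to 10 counts in males) to 0.65 (Cox7a1). In 0 of the 45 did the male groups stand apart, while 4.52% of all tested genes had every knockout library below every wild type library and 5.10% had it above. Atp5e was at 90.0, 57.3 and 150 CPM in wild type and at 52.5, 167 and 40.8 CPM in knockout males (-0.19 ± 0.49). Atp5md, the member of complex V with the largest male value, was at 186, 101 and 312 CPM and at 105, 329 and 86.1 CPM (-0.21 ± 0.48). In Uqcrb, which had the largest male value in complex III, the levels were 111, 59.7 and 108 CPM and 85.1, 159 and 78.2 CPM (0.21 ± 0.32). Each time knockout replicate 2 was the highest male library, with wild type replicates 1 and 3 next in Uqcrb and wild type replicate 3 next in the others. The same order was seen in abundant members of complexes III and IV. Cox4i1 was at 819, 600 and 1002 CPM and at 574, 1302 and 501 CPM, and Uqcrh at 246, 164 and 434 CPM and at 167, 496 and 134 CPM. Without male knockout replicate 2 the male median was -0.50, with 18 members at an unadjusted p under 0.05 and 0 called. In most of the other members described above, wild type replicate 3 and knockout replicate 2 were the highest libraries of their male groups. Uqcr10 was at 198, 130 and 296 CPM in wild type and at 120, 325 and 109 CPM in knockout males, and Uqcr11 at 238, 177 and 413 CPM and at 170, 420 and 158 CPM. Uqcrq was at 694, 463 and 1063 CPM and at 503, 1071 and 422 CPM. All of these small complex III subunits had their male maximum in knockout replicate 2 and their wild type maximum in replicate 3. In complex IV Cox6a1 was at 568, 503 and 795 CPM and at 472, 779 and 438 CPM, and Cox8a at 319, 276 and 418 CPM and at 274, 418 and 254 CPM. Cox7b was at 237, 149 and 338 CPM and at 158, 403 and 133 CPM, and Cox6c at 263, 171 and 336 CPM and at 178, 431 and 157 CPM. Cox7a2 was at 171, 128 and 238 CPM and at 128, 297 and 105 CPM, and Cox6b1 at 315, 264 and 426 CPM and at 245, 448 and 231 CPM. In these too the genotypes overlapped, with wild type replicate 3 and knockout replicate 2 the highest of their groups. Cox5a (166, 160 and 203 CPM, then 148, 215 and 130 CPM), Cox7a2l (80.7, 85.9 and 109 CPM, then 72.5, 87.2 and 67.6 CPM) and Cox5b-ps (20.4, 18.9 and 28 CPM, then 14.6, 30.5 and 13.6 CPM) kept to that order. Cox6b2 was at 15.4, 15.5 and 20.4 CPM and at 16.0, 29.2 and 14.7 CPM, and Cox7a1 at 0.468, 0.391 and 1.55 CPM and at 0.540, 2.82 and 0.513 CPM. The order thus held for the low tissue isoforms Cox6b2 and Cox7a1 as well. Cox4i2 was at 0.375, 0.0559 and 0.620 CPM and at 0.108, 0.362 and 0.186 CPM, near the limit of these counts.

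In complex V the alpha and beta subunits, which did not pass in females, had another order in males. Atp5b was at 1351, 1675 and 1630 CPM in wild type and at 1320, 1475 and 1395 CPM in knockout males (-0.15 ± 0.16). Atp5a1 was at 957, 1304 and 1070 CPM and at 1046, 992 and 1139 CPM (-0.07 ± 0.17), and Uqcrc1 of complex III at 328, 430 and 347 CPM and at 367, 312 and 369 CPM (-0.08 ± 0.18). In these 3, as in Sdha, the highest wild type library was replicate 2, the wild type male library with the lowest median of the members. Atp5g3 (550, 547 and 688 CPM, then 467, 741 and 428 CPM), Atp5c1 (367, 299 and 394 CPM, then 288, 435 and 246 CPM) and Atp5h (211, 171 and 269 CPM, then 155, 303 and 151 CPM) followed the majority. So did Atp5k (54.3, 46.5 and 77.7 CPM, then 39.6, 86.3 and 40.6 CPM), Atp5l (131, 94.3 and 198 CPM, then 84.8, 216 and 74.7 CPM) and Sdhc (221, 196 and 297 CPM, then 200, 296 and 159 CPM). The spread among males was large, so the male values do not show that the genotypes were alike.

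The sexes were compared in 3 further ways, and the female knockout libraries enter several of these contrasts. Averaged over both sexes, 23 members were called lower and 0 higher, against 15.1% of all tested genes called and 7.29% lower. The median was -0.59. DESeq2 called 36 (14.8% of genes lower). The smallest adjusted p-values among the 23 belonged to Atp5c1 (-0.59 ± 0.15, edgeR adjusted p = 0.035), Atp5k (-0.88 ± 0.24), Atp5h (-0.71 ± 0.20) and Cox5a (-0.51 ± 0.14). In 10 of the 12 fits that left a library out 0 members were called by edgeR (35 to 38 had an unadjusted p under 0.05), and the genes called in all were 18 to 676 in those fits, against 2111 in the full one. The members called were 35 without male wild type replicate 2 and 37 without male knockout replicate 2, with 4510 and 5594 genes called in all. The difference between the male and the female effect had a median of 0.96, and 32 members had an unadjusted p under 0.05, but edgeR called 0 members and 0% of all genes. DESeq2 called 21 members (14.0% of the 1776 genes to which it gave an adjusted p were called with a higher male effect), so the tools differed in this call. Between wild type males and females 0 members were called (4.49% of all tested genes, 5 members with an unadjusted p under 0.05, and by DESeq2 1, Cox7a1), with a median of -0.36. Between knockout males and females 0 were called (5.40% of all tested genes, 26 members with an unadjusted p under 0.05, and by DESeq2 4), with a median of 0.64. These last 4 were Cyc1, Cox5a, Cox7a2 and Atp5o, all with higher levels in males.

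The level of the members in a library went with that library's length slope. Wild type females had slopes of -0.14, -0.23 and -0.20 and knockout females of 0.084, 0.29 and 0.19, so the female groups did not overlap (means -0.19 ± 0.043 and 0.19 ± 0.10, SD, n = 3). The two-sided exact permutation test gave p = 0.1, and no smaller p is possible with 3 libraries a group. The members' median log2 CPM, as a deviation from the mean of all libraries, was 0.41, 0.57 and 0.57 in wild type and -0.35, -0.87 and -0.58 in knockout females. Wild type males had slopes of -0.030, 0.11 and -0.15, with members at 0.09, -0.21 and 0.41. Knockout males had slopes of 0.083, -0.16 and 0.17, with members at -0.27, 0.61 and -0.39 (slopes of male genotypes: exact permutation test, two-sided p = 0.8, n = 3). Within each male genotype (n = 3), members stood high in the libraries with negative slope and low in those with positive slope. Most tested members are short. By deposited length 11 had under 1000 bases, 17 had 1000 to under 2000 and 6 had 4000 and over. By principal transcript 27 had under 1000. A positive slope means that short genes stand lower relative to long ones. Part of this order may thus follow from how the slope is defined, and the size of that part was not tested. In females the slope and the genotype cannot be told apart.

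**Figure D2:**
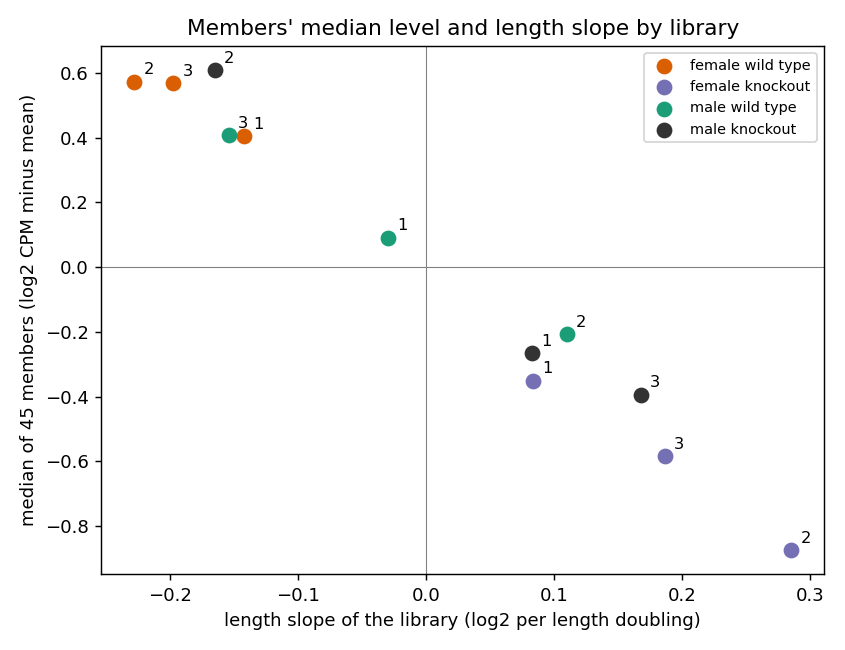
Median of the 45 tested members (log2 CPM minus the mean of all libraries, vertical axis) against the length slope of the library over other genes (log2 per doubling of gene length, horizontal axis). Each point is a library, coloured by group and numbered by replicate. By slope the libraries run from female wild type replicate 2 (slope -0.23, members 0.57) to female knockout replicate 2 (slope 0.29, members -0.87), with the 6 males between them.

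Set beside other genes of like length, the members fell more than most. The bins match length only and not level, and a gene with few counts is less easily called. Among other genes under 1000 bases of deposited length the female median was -0.92 and 41.1% were called lower, while 9 of 11 members fell with a median of -1.30. From 1000 to under 2000 bases other genes had a median of -0.49 with 34% lower, and members -1.33 with 15 of 17 lower. From 2000 to under 4000 bases these were -0.08 with 21.5% lower, and -0.88 with 10 of 11 lower. At 4000 bases and over, other genes had a median of 0.36 with 10.1% lower, and members -0.54 with 3 of 6 lower. The deposited length is not a transcript length, as Atp5l (11.8 times its transcript), Cox6c (4.83 times) and Atp5e (4.17 times) show. Sorted by the principal transcript, 27 members were under 1000 bases, of which 24 fell with a median of -1.40, where other genes had -1.05 and 60.5% lower. From 1000 to under 2000 bases 10 of 13 members fell with a median of -0.82, where other genes had -0.37 and 33.5% lower. From 2000 to under 4000 bases 2 of 4 members fell with a median of -0.40, where other genes had 0.12 and 14.2% lower. The single member of 4000 bases and over, Atp5g1, fell (-0.71), where other genes had 0.56 and 5.62% lower. Compared with the same limits of deposited length, the gap between members and other genes was smaller by transcript length in the lower 3 bins and larger in the last, which holds only Atp5g1. Across the 45 members, which share the same 12 libraries, the female log2 fold change had Pearson's r of 0.14 and Spearman's rho of 0.24 with log2 deposited length, and 0.39 and 0.49 with log2 transcript length. By complex, rho with deposited length was 1 in II (4 members) and 0.75 in III (9). It was -0.23 in IV (15) and 0.26 in V (17). With transcript length rho was 0.60, 0.68, -0.079 and 0.57 in the same order.

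**Figure D3:**
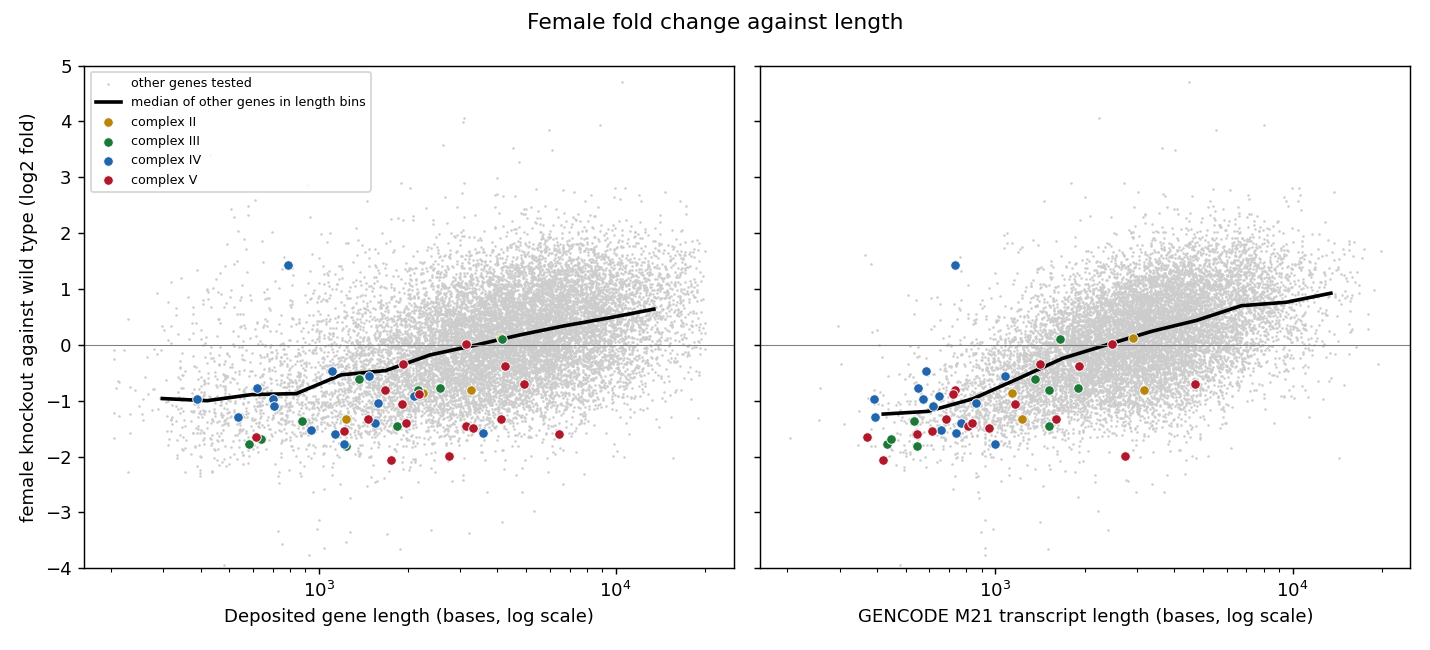
Female log2 fold change of each gene (vertical axis) against the deposited gene length (left) and the GENCODE M21 transcript length (right), both in bases on a log scale. Grey points are other tested genes, the black line is their median in length bins and coloured points are the members by complex. On the left many members lie well below the line at 2000 bases and over, and on the right most of these move to short lengths and nearer to the line.

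How many members were called depended on how length entered the model. With each library's slope as a covariate 0 members were called by edgeR (0.0286% of all genes lower and 0.0428% higher), 2 had an unadjusted p under 0.05, and the median was -0.11. In that fit Atp5e was at 0.09 ± 0.28, Sdhd at -0.07 ± 0.24 and Cox5a at -0.29 ± 0.19. Of the members not called without the slope, Sdha was at -0.33 ± 0.22 and Atp5b at -0.40 ± 0.23. Atp5a1 was at -0.28 ± 0.22, Uqcrc1 at -0.22 ± 0.23 and Atp5d at -0.13 ± 0.22. Cox6b2 (0.69), Cox7a1 (1.09) and Cox4i2 (3.82), all with low levels, were above 0. With a smooth trend on deposited length removed from each library, 28 members were called lower and 1 higher (14.5% and 15.7% of all genes), with a median of -0.55. With the trend on transcript length removed, a setting chosen after the data were seen, 16 were lower and 3 higher (15.3% and 13.5% of all genes), with a median of -0.29. By complex these were 2 of 4 in complex II, 4 of 9 in III, 2 of 15 in IV and 8 of 17 in V. The 16 were Sdhc, Sdhd, Uqcrq, Uqcrh, Cyc1, Uqcrc2, Cox6c, Cox7b and, in complex V, Atp5pb, Atp5c1, Atp5j, Atp5j2, Atp5g1, Atp5md, Atp5o and Atp5e. The 3 higher were Cox8a (0.49), Cox6b2 (0.73) and Cox4i2 (2.43). Atp5md, whose principal transcript has 2733 bases, was at -2.05 in this fit (edgeR adjusted p = 0.020), and Atp5g1, with 4715 bases, at -1.08 (edgeR adjusted p = 0.016). Atp5e went to -0.59 (edgeR adjusted p = 0.040) and Atp5l to -0.32, which did not pass. Complex IV had a median of 0.13 in this fit, where complexes II, III and V had -0.42, -0.35 and -0.35.

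**Figure D4:**
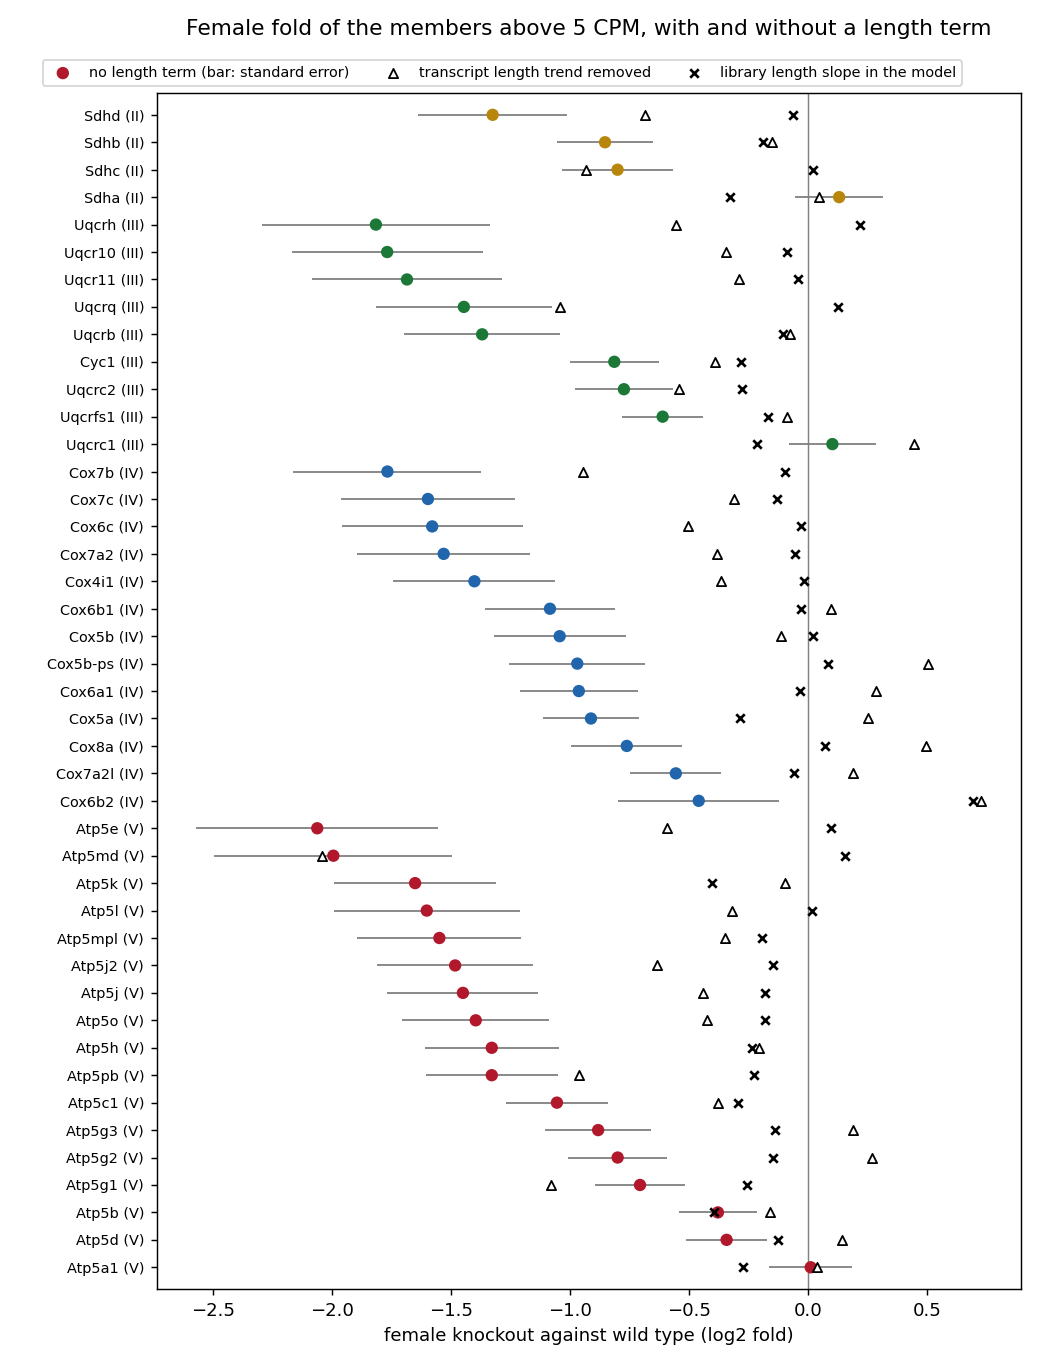
Female log2 fold change (horizontal axis) of the 43 members above 5 CPM, grouped by complex, with dots and standard error bars for the model without a length term, triangles with the transcript length trend removed and crosses with the library length slope in the model. Most dots lie between -2.06 and -0.34, most triangles are nearer to 0 and the crosses lie around 0, with Atp5md, Atp5g1 and Sdhc among the members whose triangle lies below their dot.

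Other genes of oxidative phosphorylation and a further group of short transcripts are given beside them from lists fixed by name. Of 39 tested nuclear subunits of complex I, 32 were lower and 0 higher in females, with a median of -1.15. The mitochondrially encoded subunits had 1 of 13 called lower (mt-Atp8, -1.67 ± 0.49), with a median of -0.13, beside the 18.8% of all tested genes called lower. That list includes the mt-Nd genes of complex I. Of the others, whose products join the members, mt-Cytb was at -0.18 and mt-Co1 at -0.13. The values of mt-Co2, mt-Co3 and mt-Atp6 were -0.60, -0.35 and -0.46, none of them called. The difference between the mitochondrially encoded subunits and the members was not tested. Of 42 tested genes for cytochrome c and assembly factors of complexes II to V, 24 were lower and 2 higher, with a median of -0.83. Cycs, the somatic cytochrome c, was at -1.28 ± 0.22, the complex III assembly factor Uqcc2 at -2.0 ± 0.44 and the complex IV copper factor Coa6 at -1.94 ± 0.36, while the inner membrane insertase Oxa1l (0.69 ± 0.21) and Coa5 (0.60 ± 0.22) were higher.

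Of 19 regulators of mitochondrial biogenesis 4 were called lower and 6 higher in females, with a median of 0.19. With 18.8% of all tested genes lower and 17.7% higher, these counts are no result about the list. Tfam, which packages and transcribes mitochondrial DNA, was at -0.67 ± 0.21 and the nuclear receptor Esrra at -0.69 ± 0.18, while the coactivators Ppargc1b (2.71 ± 0.53) and Ppargc1a (0.69 ± 0.24) were higher. Nrf1, whose motif letters were searched above, was at 0.40 ± 0.21 (edgeR adjusted p = 0.14), Gabpa at 0.19 ± 0.18 and Yy1 at -0.15 ± 0.18, which did not pass. Of the GABP beta subunit genes, Gabpb2 was called higher (0.995 ± 0.20, edgeR adjusted p = 0.014) and Gabpb1 was not called (-0.057 ± 0.28). Cytosolic ribosomal proteins, which are no part of the mitochondrion but have short transcripts too, had 80 of 96 lower and 4 higher with a median of -1.31. With the slope in the model 0 genes of any of these lists were called in females, and in males edgeR called 0 without it.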

How the data were processed

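RNA of 12 mouse livers in 4 groups of 3 was analysed from the deposited table of raw read counts per gene. The authors' counts came with gene symbol, position, length and type. HISAT2 2.0.5, DESeq2 (no version given) and the build mm39 are named per the submitters' processing notes. What counted the reads, on which annotation and with which strand option is not stated in the sources read, so overlapping, antisense and near-identical genes cannot be told apart. Every column of counts was matched to a sample by its name.

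Genes passing edgeR's filterByExpr (14003 of 56748, with 99.92% of the counts) were tested with edgeR 4.0.16 (R 4.3.3, limma 3.58.1): TMM scaling, 4 group means, quasi-likelihood test with 8 residual degrees of freedom, and Benjamini-Hochberg adjustment over all tested genes, with calls at an adjusted p under 0.05. Standard errors were derived as |log2 fold change| divided by √F. DESeq2 1.42.0 was an alternative. The length slope used non-member genes with mean log2 CPM above 2 (prior count 2). The smooth trend was a spline with 6 degrees of freedom per library, used as an offset. Principal transcript lengths (GENCODE M21, by gene identifier) were found for 87.4% of tested genes and for all 45 tested members. Replicates of a group differed by more than counting error (chi-square divided by its degrees of freedom, 15.8 to 141), and p-values measure the spread between these libraries. The scripts were tested on simulated data. The written rule for named members used complex, level, size of change, length, isoform pairs and smallest adjusted p. Cyc1, Uqcrfs1 and the promoters shown lay outside it and were chosen after values were seen. Uqcrc2, Cox7c, Cox5b, Atp5d, Atp5pb, Atp5j, Atp5o, Atp5g1, Atp5g2, Atp5mpl and Atp5j2 were also named outside the rule. The members and lists were chosen with earlier results of these data known. Alternatives were other scaling, no filter on low counts, the 6 libraries compared alone, a replicate block, length terms and leaving out each library.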

Additional observations from a re-analysis of the deposited data

How the results depend on the processing

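In females the 37 calls were 37 with RLE or upper-quartile scaling and with no filter on low counts, 35 with the replicate block and 38 with only the 6 libraries compared. They were 0 with the library length slope, alone or with the replicate block, and 0 with the transcript length slope, and 19 (16 lower, 3 higher) with the smooth transcript trend removed. Leaving out a library gave 0 to 38. The mean over the sexes (23 calls) gave 7 with upper-quartile scaling, 0 with the replicate block, 0 with the slope alone or with the block, 0 with the transcript slope, 1 with the smooth length trend, 2 with the smooth transcript trend, 36 with DESeq2 and 0 to 37 without a library. The male-female difference in effect (0) gave 22 with no filter and 21 with DESeq2. Wild type males against females (0) gave 4 with no filter, 1 with DESeq2 and 0 to 1 without a library, and the knockout contrast (0) gave 19, 4 and 0 to 3. Male calls were 0 throughout, with 0 to 0 without a library. The female slope difference of 0.37 was 0.49 on transcript length and 0.32 to 0.43 without a library, and the male one -0.017 to 0.15. Fitting only the 6 libraries gives no value for the mean or the difference in effect. Why these settings differ was not tested.

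The following are members called in the same contrast without a length term and chosen by the rule for named members, and members not called are left out. Their female log2 fold changes turned positive with the slope in Sdhc (0.019), Uqcrq (0.12), Uqcrh (0.22), Cox8a (0.068), Cox5b-ps (0.084), Atp5e (0.093), Atp5md (0.15) and Atp5l (0.015), and with block and slope at 0.024, 0.13, 0.23, 0.068, 0.080, 0.11, 0.16 and 0.025. With the transcript slope they did in Uqcrq (0.029), Uqcrh (0.091), Cox8a (0.023), Cox5b-ps (0.023) and Atp5md (0.020). With the smooth length trend they did in Cox6a1 (0.051), Cox8a (0.28), Cox5b-ps (0.16) and Cox7a2l (0.073), and with the smooth transcript trend in Cox6a1 (0.28), Cox8a (0.49), Cox5b-ps (0.50), Atp5g3 (0.19), Cox5a (0.25), Cox6b1 (0.095) and Cox7a2l (0.19). Of the other members called in females, Cox5b did with the slope (0.021), Uqcrfs1 with the smooth length trend (0.080) and Atp5g2 with the smooth transcript trend (0.27). The mean over the sexes turned positive with the smooth transcript trend in Cox6a1 (0.13), Atp5g3 (0.072), Cox5a (0.12) and Cox6b1 (0.033), and in Atp5e and Atp5md with the slope (0.016 and 0.068) and with block and slope (0.024 and 0.070).

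Same-numbered libraries did not pair: 3 of 18 correlations of their deviations passed 0.1 (-0.61 to 0.28), so the block has no support in the design. With 3 libraries a group, an exact permutation test cannot go below 0.1. Cox4i2 and Cox7a1 rest on few counts.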
